A study of Rattus norvegicus with 19 samples.

Results

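The Cyp2a family of the rat comprises 3 cytochrome P450 genes, Cyp2a1, Cyp2a2 and Cyp2a3, which were followed here in neonatal liver after dosing of dams with DE-71, a flame retardant sold as a mixture of brominated diphenyl ethers, chiefly pentabromodiphenyl ether. The members were taken by their symbols in the platform annotation of the Affymetrix Rat230_2 array. Each was represented by 1 probe set with a single symbol, and 1 more probe set was annotated to both Cyp2a1 and Cyp2a2. They are 3 of 14217 genes, and their probe sets are among 31042 that were tested.

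Livers of Wistar Han rats (Crl:WI (Han)) were collected on postnatal day 4. Dams had received corn oil (vehicle) or DE-71 in corn oil by gavage at 0.1, 15 or 50 mg/kg per day from gestation day 6 through postnatal day 4. There were 5 arrays for vehicle, 5 for 0.1, 4 for 15 and 5 for 50 mg/kg, and replicate numbers follow the labels, which begin at 2 in the group of 15 mg/kg. RNA came from the left lateral lobe, and 100 ng was amplified per array. No label states that a group's arrays are of separate litters or animals, so p-values measure only the spread between these samples, which may be technical. They give the sex as female without saying whether this is the dam or the sampled animal. Alpha-fetoprotein (Afp), a fetal serum protein, stood at 14.47 to 14.70 on the log2 scale on all 19 arrays. The Y-linked Eif2s3y stood at 9.55 to 10.07 and Xist, which is transcribed from an inactive X chromosome, at 3.88 to 4.29, values that go against a female liver.

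Cytochromes P450 of the Cyp2a family are membrane-bound monooxygenases of the endoplasmic reticulum that take electrons from P450 oxidoreductase (Por). Cyp2a1 is a testosterone hydroxylase of rat liver, and Cyp2a2 is a related steroid hydroxylase known for its higher level in the liver of adult males. Cyp2a3 is the rat counterpart of the coumarin hydroxylases of other mammals and is best known from lung and olfactory mucosa, where nuclear factor I (NFI) proteins are known to bind its promoter. Hepatic coumarin hydroxylases respond in other species to the receptors CAR and PXR, to the aryl hydrocarbon receptor (AhR) and to NRF2, the factor of the oxidative stress response.

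The promoters of Cyp2a3 and Cyp2a1 are shown because the probe sets of these 2 genes changed by unequal log2 amounts. The genes lie next to each other. Each sequence is the 250 bases before the RefSeq start in the rat genome GRCr8, plus strand, chr1:91299334-91299583 for Cyp2a3 and chr1:91359028-91359277 for Cyp2a1. Capitals mark the TATA box motif TATAAA and, in Cyp2a3, a match with 1 mismatch to the NFI motif.
Cyp2a3: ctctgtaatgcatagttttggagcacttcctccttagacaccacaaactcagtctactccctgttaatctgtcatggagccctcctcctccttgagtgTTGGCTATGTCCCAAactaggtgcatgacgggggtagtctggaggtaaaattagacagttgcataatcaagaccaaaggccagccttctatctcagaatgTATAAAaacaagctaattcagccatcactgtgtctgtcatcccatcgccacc
Cyp2a1: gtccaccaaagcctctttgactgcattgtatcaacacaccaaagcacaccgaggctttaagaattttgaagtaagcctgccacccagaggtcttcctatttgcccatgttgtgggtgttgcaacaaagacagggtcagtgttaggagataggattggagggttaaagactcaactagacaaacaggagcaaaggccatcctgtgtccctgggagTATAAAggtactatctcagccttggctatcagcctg

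The motifs were searched on both strands of windows that run from 250 bases before to 50 bases after the start, of which the table holds 33469. TATAAA lay 52 to 47 bases before the start of Cyp2a3 and 36 to 31 bases before that of Cyp2a1, and 14.2% of all windows held it. The sequence TTGGCTATGTCCCAA lay 152 to 138 bases before the start of Cyp2a3. It differs by 1 base from the NFI motif, which is TTGGC, any 5 bases and GCCAA, and 0.846% of all windows held a match with at most 1 mismatch, whereas the window of Cyp2a1 held none. Neither window held GCGTG, the core of the element bound by AhR (29.7% of all windows), the nuclear receptor half-sites AGGTCA (16.2%) and AGTTCA (14.5%), the antioxidant response element core TGACNNNGC (12.1%) or the full NFI motif (0.0418%). Only the NFI motif was also searched with 1 mismatch, after the data had been seen. The other motifs were searched by exact match, so their absence is not on equal terms with the NFI match. A match is a description of the letters and not a bound site, and the absence of a match covers these windows only. A global alignment of the 2 windows had 179 identical and 89 different positions, 66.8% identity of the aligned bases, and 64 positions in gaps.

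The arrays were first checked against their labels. Cyp1a1, the best known target of AhR, stood at 7.10 to 8.36 in vehicle, 13.16 to 14.17 at 15 mg/kg and 14.11 to 14.30 at 50 mg/kg. In the group of 0.1 mg/kg it stood at 7.19 to 8.42 on 4 arrays and at 14.06 on the library labelled 0.1 mg/kg replicate 1, which goes against that label. Vehicle replicate 2 and 0.1 mg/kg replicate 2 correlated at 0.9986 over all probe sets, the highest of 171 pairs of arrays (the next was 0.9966), and both carried kidney transcripts (mean marker level 9.55 and 9.60, against a median of 4.22 over the 19 arrays). These 3 are called the arrays in doubt, and the main differences of the members are given also without them. By the submitters' numbering, 4 of the 5 arrays of 50 mg/kg stand among the 7 early ones (numbers up to 8). With them stands 1 array of each other group, so dose and array number overlap in part. Early, late and array order refer here to these numbers only, and the cut at 8 was set here. The labels used here do not say that the numbers are an order of processing or a batch. Hepatocyte markers stood at a mean of 14.43 to 14.53 on every array, near the top of the scale, where differences can read too small. They do not show whether the share of hepatocytes was equal.

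Cyp2a3 had the widest range of the family, 5.73 log2 units over the 19 arrays, and stood above vehicle on every array of 15 and 50 mg/kg. In vehicle, replicates 1 to 5 gave log2 signals of 6.48, 4.98, 6.05, 5.99 and 6.62. Those of 15 mg/kg, replicates 2 to 5, gave 9.77, 8.66, 8.73 and 8.15. Those of 50 mg/kg, replicates 1 to 5, gave 10.71, 10.48, 9.82, 10.31 and 9.20. Every array of both higher doses lay above every vehicle array, and the lowest array at 50 mg/kg was still above 3 of the 4 arrays at 15 mg/kg. Groups that do not overlap with the dose group higher occurred in 2.21% of all probe sets at 15 mg/kg and in 3.21% at 50 mg/kg.

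The mean of Cyp2a3 went from 6.02 ± 0.643 (SD, n = 5) in vehicle to 10.11 ± 0.603 (n = 5) at 50 mg/kg. The rise was 16.9-fold, a log2 difference of 4.08 (SE 0.553, 95% interval 2.92 to 5.24), with limma's adjusted p = 0.00123. By size it ranked 3 among the rises of all 31042 probe sets, whose median difference was 0.02. At 50 mg/kg 1.61% of the probe sets passed the threshold of 0.05 in either direction and 1.22% were higher, so Cyp2a3 and Cyp2a1, which both passed, were 2 of 380 probe sets that rose. Without the 3 arrays in doubt, Cyp2a3 differed by 3.82 (adjusted p = 8.52e-05). A block for early and late arrays gave a difference of 3.22 (adjusted p = 0.00977).

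At 15 mg/kg Cyp2a3 stood at 8.83 ± 0.677 (SD, n = 4), 6.99-fold above vehicle, a log2 difference of 2.80 (SE 0.586, 95% interval 1.57 to 4.04). Although this was rank 4 by size among all probe sets, limma's adjusted p was 0.265, and no probe set passed in this comparison (0%; 9.93% had an unadjusted p under 0.05). The exact two-sided permutation test over the arrays gave p = 0.00794 for this gene alone, not adjusted for other genes, the smallest value that 4 against 5 arrays allow. The adjusted p was 0.0309 without the 3 arrays in doubt, at a difference of 2.54, and 0.0331 without 0.1 mg/kg replicate 1 alone, which enters the shared estimate of the spread. A block for early and late arrays gave 0.0414, at a difference of 2.73.

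The group of 0.1 mg/kg was uneven for Cyp2a3. Replicates 1 to 5 gave 9.01, 5.10, 6.13, 6.27 and 7.51, so that replicates 1 and 5 lay above the highest vehicle array and the other 3 within the vehicle range. Replicate 1 is the array whose Cyp1a1 level goes against its label. The mean was 6.81 ± 1.50 (SD, n = 5), a log2 difference of 0.78 from vehicle (SE 0.553, 95% interval -0.38 to 1.94) with an exact permutation p of 0.357. Without replicate 1 the mean was 6.25 ± 0.990 (n = 4), and without the 3 arrays in doubt it was 6.64 ± 0.761 (n = 3) against 6.28 ± 0.311 (n = 4) in vehicle. Replicate 5 remained the highest in both cases at 7.51, while its Cyp2c7 value of 4.95 lay within the vehicle range of 4.47 to 5.03. No probe set passed at 0.1 mg/kg by limma's adjusted p, and 2.46% had an unadjusted p under 0.05.

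**Figure D1:**
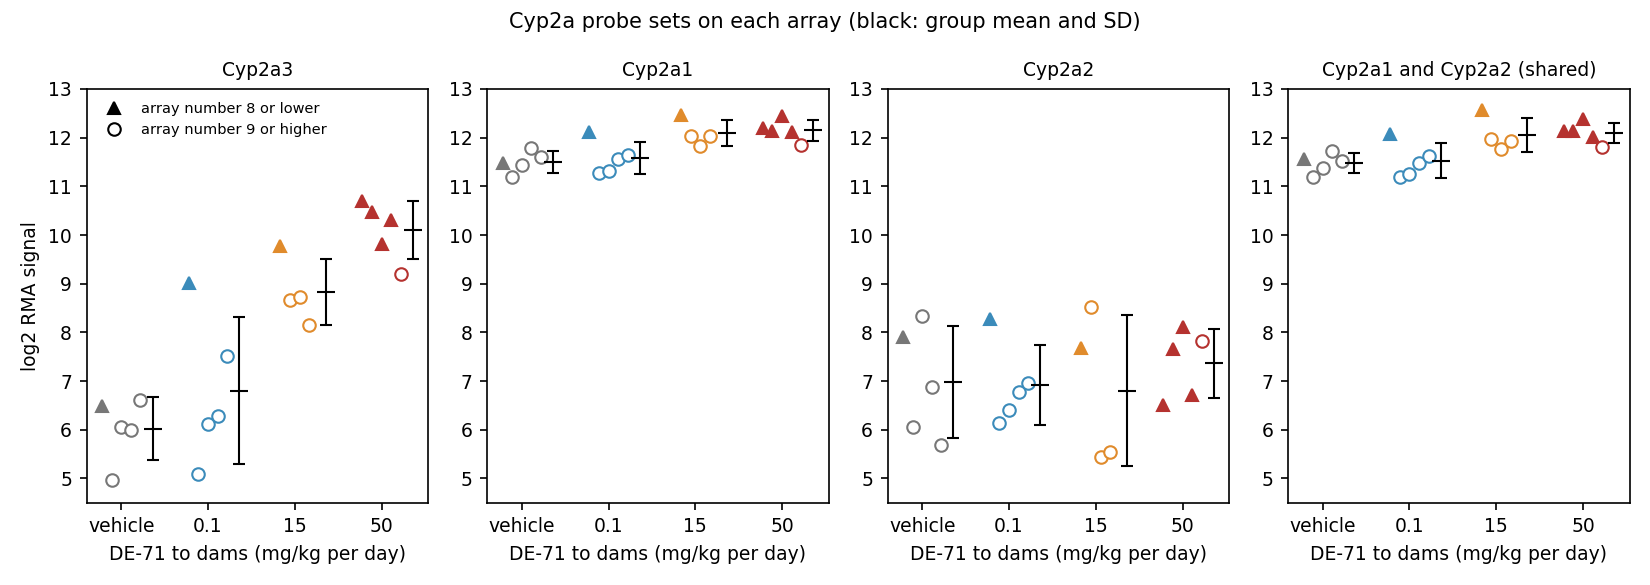
log2 RMA signal of each Cyp2a probe set on each of the 19 arrays by dose of DE-71, with triangles for early and circles for late array numbers and black bars for the group mean and SD. Cyp2a3 climbs from 4.98 to 6.62 in vehicle to 9.20 to 10.71 at 50 mg/kg, Cyp2a1 and the shared probe set move by less than 1 unit between group means, and the groups of Cyp2a2 overlap.

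Between 15 and 50 mg/kg Cyp2a3 differed by a further 1.28 log2 units (SE 0.586, 95% interval 0.04 to 2.51), 2.42-fold. Of the 5 arrays at 50 mg/kg 4 lay above the highest array at 15 mg/kg. The exact permutation test gave p = 0.0317 for this gene alone, whereas limma's adjusted p was 0.634 and no probe set passed in this comparison (0%; 7.79% had an unadjusted p under 0.05). Since early arrays ran high in both groups, the values were also read within each part of the array order. In vehicle the early array stood at 6.48, within the 4.98 to 6.62 of the late ones. The early array at 15 mg/kg, replicate 2, also lay within the range of 50 mg/kg in 2 other genes. These were Cyp1a1 (14.17, against 14.11 to 14.30) and Cyp1a2 (14.08, against 13.65 to 14.33). The part of this single array, beside that of array order, was not tested. Among early arrays the single array at 15 mg/kg stood at 9.77 and the 4 at 50 mg/kg at 9.82 to 10.71. Among late arrays those at 15 mg/kg stood at 8.15 to 8.73 and the single array at 50 mg/kg at 9.20. In both parts the arrays of 50 mg/kg were higher, by 0.57 and 0.68 on average, and a fit with a block for early and late arrays gave 0.49 (adjusted p = 0.852).

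Cyp2a1, the testosterone hydroxylase of the family, moved less. In vehicle, replicates 1 to 5 gave 11.48, 11.18, 11.43, 11.79 and 11.59. At 50 mg/kg they gave 12.20, 12.14, 12.44, 12.12 and 11.84. The means were 11.50 ± 0.224 (SD, n = 5) and 12.15 ± 0.215 (n = 5). Every array at 50 mg/kg lay above every vehicle array, as in 3.21% of all probe sets. The rise was 1.57-fold, a log2 difference of 0.65 (SE 0.159, 95% interval 0.32 to 0.99), with limma's adjusted p = 0.0464, just under the threshold. It ranked 228 among the rises of all probe sets at this dose. Without the 3 arrays in doubt the difference was 0.57 (adjusted p = 0.0445). With a block for early and late arrays the difference was 0.42 and did not pass (adjusted p = 0.252), and with scores of muscle and pancreas transcripts as covariates it was 0.59 (adjusted p = 0.114).

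Replicates 2 to 5 of 15 mg/kg gave Cyp2a1 values of 12.47, 12.03, 11.83 and 12.03, a mean of 12.09 ± 0.269 (SD, n = 4). All 4 lay above the vehicle range, as in 2.21% of all probe sets, the lowest by a margin of less than 0.1. The log2 difference was 0.59 (SE 0.169, 95% interval 0.24 to 0.95), 1.51-fold, with limma's adjusted p = 0.427 and an exact permutation p of 0.0159 for this gene alone. The means at 15 and 50 mg/kg differed by 0.06 (95% interval -0.30 to 0.41), an interval that includes a fall and a rise. At 0.1 mg/kg replicates 1 to 5 gave 12.12, 11.27, 11.32, 11.56 and 11.64. Replicate 1 was above the vehicle range in Cyp2a1 as it was in Cyp2a3, the other 4 lay within it, and the mean difference from vehicle was 0.09 (95% interval -0.25 to 0.42, exact permutation p = 0.683).

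Cyp2a2, the gene known from adult male liver, did not pass in any dose comparison. Vehicle replicates 1 to 5 gave 7.92, 6.05, 8.34, 6.88 and 5.68. Replicates 2 to 5 at 15 mg/kg gave 7.69, 8.53, 5.44 and 5.54, and replicates 1 to 5 at 50 mg/kg gave 6.52, 7.66, 8.11, 6.71 and 7.83. At 0.1 mg/kg the values were 8.28, 6.15, 6.41, 6.78 and 6.96. All 4 groups overlapped, and the arrays of 15 mg/kg alone spanned the range of all 19. The spread within groups was 1.07 log2 units (SD), against 0.265 for Cyp2a1 and 0.949 for Cyp2a3.

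The mean of Cyp2a2 was 6.97 ± 1.15 (SD, n = 5) in vehicle and 7.36 ± 0.708 (n = 5) at 50 mg/kg, a log2 difference of 0.39. Its 95% interval of -0.92 to 1.70 covers a fall as well as a rise (exact permutation p = 0.532). The difference was -0.17 at 15 mg/kg (95% interval -1.56 to 1.22, exact permutation p = 0.833), and at 0.1 mg/kg it was -0.06 (95% interval -1.37 to 1.25, exact permutation p = 0.937). With this spread a change of the size seen in Cyp2a1 was not detectable for Cyp2a2. The sign at 50 mg/kg turned with the same block (-0.13), and without the 3 arrays in doubt the differences were 0.16 at 50 mg/kg, -0.40 at 15 mg/kg and -0.49 at 0.1 mg/kg. Dose groups accounted for 4.70% of the variance of Cyp2a2 over the 19 arrays, 60.7% of that of Cyp2a1 and 79.2% of that of Cyp2a3.

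The probe set annotated to both Cyp2a1 and Cyp2a2 followed Cyp2a1. Its mean went from 11.48 ± 0.204 (SD, n = 5) in vehicle to 12.06 ± 0.351 (n = 4) at 15 mg/kg and 12.09 ± 0.209 (n = 5) at 50 mg/kg. Neither dose group overlapped with vehicle, as in 2.21% of all probe sets at 15 mg/kg and 3.21% at 50 mg/kg. The difference at 50 mg/kg was 0.61 (SE 0.170), 1.53-fold, with limma's adjusted p = 0.0794, so that the call of Cyp2a1 was lost with this probe set in its place. Over the 19 arrays its Pearson correlation was 0.990 with Cyp2a1 and 0.391 with Cyp2a2. The 3 genes are close relatives, and how far the oligonucleotides of 1 member also read another was not tested.

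**Figure D2:**
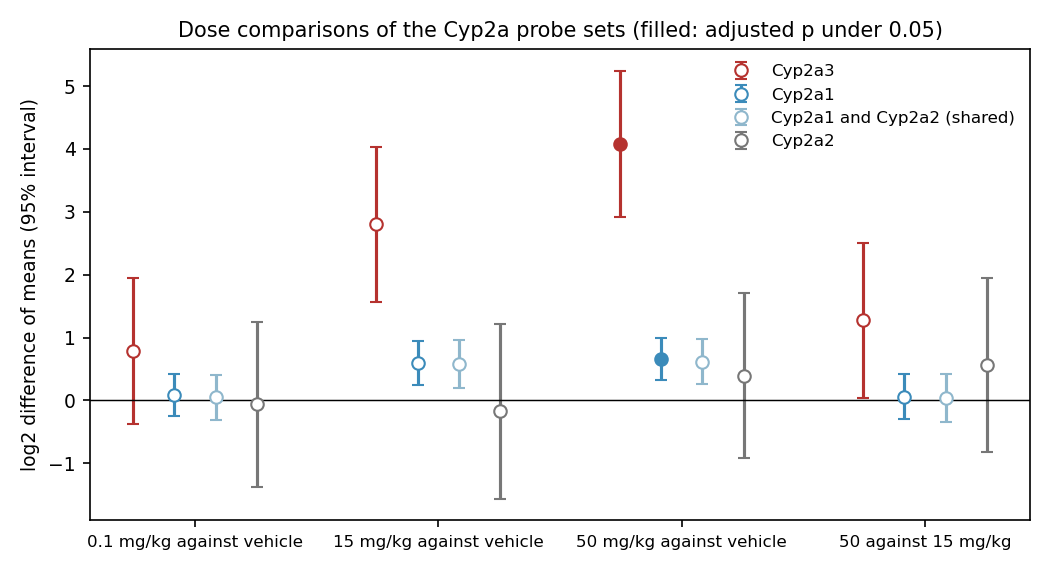
log2 differences between group means for the 4 Cyp2a probe sets in the 4 dose comparisons, with limma's 95% intervals; filled points passed an adjusted p of 0.05. Cyp2a3 and Cyp2a1 at 50 mg/kg against vehicle are the filled points, at 4.08 and 0.65, and every interval of Cyp2a2 includes 0.

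Whether members changed by different amounts was tested on the difference between 2 members within each array, with exact two-sided permutation tests over the arrays and adjustment over 9 tests (3 pairs and 3 doses). Array order did not enter these tests, and no block for early and late arrays was tried in them. The members also stood at unlike levels. In vehicle Cyp2a1 stood at 11.18 to 11.79, with 96.7% to 97.9% of probe sets below it. Cyp2a3 stood there at 4.98 to 6.62, with 34.5% to 56.3% below it. Folds of very high or very low signals can read too small, and the part of this in the unequal log2 changes was not tested. At 50 mg/kg the change of Cyp2a1 was smaller than that of Cyp2a3, with a difference of -3.43 log2 units (exact permutation p = 0.00794, adjusted p = 0.0238), and that of Cyp2a2 differed from Cyp2a3 by -3.69 (exact permutation p = 0.00794, adjusted p = 0.0238). The difference between Cyp2a1 and Cyp2a3 at 15 mg/kg was -2.21 (exact permutation p = 0.00794, adjusted p = 0.0238). That between Cyp2a2 and Cyp2a3 was -2.98 (exact permutation p = 0.0238, adjusted p = 0.0536). Without the 3 arrays in doubt the adjusted exact permutation p of Cyp2a1 against Cyp2a3 at 15 mg/kg was 0.0857, at a difference of -2.03. The unadjusted exact permutation p was then 0.0286, the smallest that 4 against 4 arrays allow. No pair passed at 0.1 mg/kg. The test of Cyp2a1 against Cyp2a2 did not pass at any dose, and at 50 mg/kg their changes differed by 0.26 (adjusted exact permutation p = 0.759).

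In the RefSeq gene order of chromosome 1 the family lies in a row, Cyp2a3, Cyp2a1, Cyp2a2, within a larger cluster of Cyp2 genes. Of the 10 genes on each side, 11 of 20 were measured and 0 passed at 50 mg/kg, with log2 differences from -0.12 to 0.34 (median -0.02). On the side of Cyp2a3 lie Cyp2g1, known from olfactory mucosa, Cyp2b12 and Cyp2b21. Cyp2g1, the nearest measured gene, differed by 0.11 (SE 0.100, limma's adjusted p = 0.636) at 50 mg/kg, beside 4.08 for Cyp2a3. Several of these neighbours were dim: the mean signal over the 19 arrays was 4.80 for Cyp2g1, 3.16 for Cyp2b12, 4.18 for Cyp2b21 and 3.81 for Mia, all under the array medians of 6.06 to 6.16, where folds can read too small. Cyp2b21 had the highest value at 15 mg/kg, 0.65 (SE 0.141, limma's adjusted p = 0.316). On the side of Cyp2a2 lie Cyp2f4, a P450 known from lung, at -0.05, and Cyp2t1 at -0.12, followed by Egln2, an oxygen-sensing prolyl hydroxylase, at -0.12. The difference between Cyp2a3 and its neighbours was not tested.

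**Figure D3:**
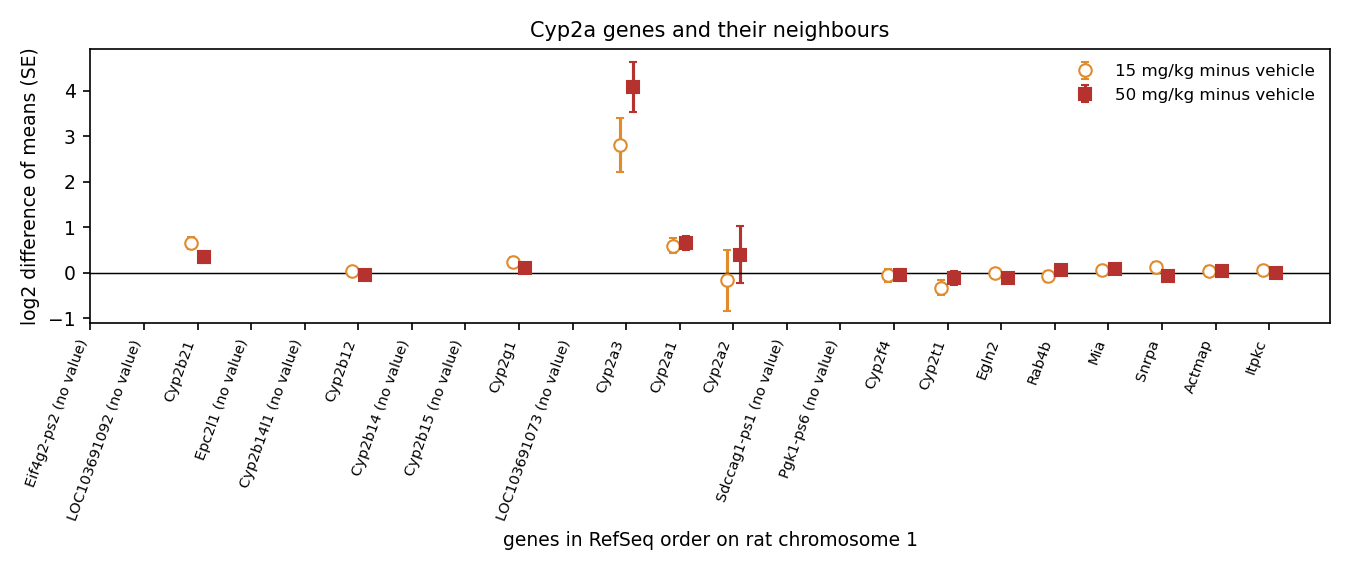
log2 differences from vehicle, with limma's SE, at 15 mg/kg (open circles) and 50 mg/kg (squares) for the Cyp2a genes and the 10 genes on each side in RefSeq order on rat chromosome 1. Cyp2a3 stands at 2.80 and 4.08 and Cyp2a1 at 0.59 and 0.65, while the 11 measured neighbours lie between -0.33 and 0.65.

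Markers of the organs in which Cyp2a3 and its neighbours are best known gave no call at any dose. All 8 lung epithelium markers were measured and 0 passed, and their mean level was 4.44 to 5.47 in vehicle, 4.46 to 4.66 at 15 mg/kg and 4.47 to 4.67 at 50 mg/kg. Of 7 olfactory epithelium markers 6 were measured and 0 passed, with mean levels of 5.13 to 5.25 in vehicle, 5.17 to 5.37 at 15 mg/kg and 5.18 to 5.39 at 50 mg/kg. Transcripts of other organs were uneven between arrays. Skeletal muscle markers (7 of 8 measured, 0 passed) ranged from 4.33 to 11.27 in vehicle, from 4.67 to 7.69 at 15 mg/kg and from 4.43 to 9.73 at 50 mg/kg. Exocrine pancreas markers (8 of 8 measured, 0 passed) ranged from 4.43 to 8.25 in vehicle, from 4.56 to 7.58 at 15 mg/kg and from 4.42 to 4.62 at 50 mg/kg. Bile duct markers stood at 7.95 on vehicle replicate 2, 7.98 on 0.1 mg/kg replicate 2 and 7.84 on 15 mg/kg replicate 5, against a median of 6.28. Small intestine markers stood at 7.54 on 15 mg/kg replicate 5 (median 5.21) and kidney markers at 6.70 on 50 mg/kg replicate 3. Neutrophil markers, of which 4 of 7 were measured, had mean levels of 11.94 to 12.90 in vehicle and 11.63 to 12.39 at 50 mg/kg. Of these only Camp, an antimicrobial peptide named after its values were seen, fell (-0.94, SE 0.229, limma's adjusted p = 0.0457). The part of these transcripts in the results of the family was not tested beyond the muscle and pancreas scores. With muscle and pancreas scores as covariates Cyp2a3 at 50 mg/kg differed by 3.60 (limma's adjusted p = 0.00423). In such bulk samples fewer cells of a type and less RNA per cell cannot be told apart.

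The genes whose levels followed each member most closely over the 19 arrays were sought among 14214 other genes by Pearson correlation, given as a description, since all arrays share the dose groups. For Cyp2a3 they were Cyp2c7, a retinoid- and steroid-metabolising P450 (r = 0.973), Ephx1, microsomal epoxide hydrolase (0.964), Tex2 (0.958), Cyp1a2, an arylamine-oxidising P450 (0.956), and Abcc3, an export pump for conjugates (0.955). Between arrays of the same group, as deviations from the group means, these correlations were 0.882, 0.868, 0.819, 0.813 and 0.829 in that order. Without 0.1 mg/kg replicate 1 they were 0.784, 0.747, 0.637, 0.621 and 0.669, so that array carried part of them. Without all 3 arrays in doubt they were 0.798, 0.632, 0.440, 0.566 and 0.535, lower again for all but Cyp2c7. Deviations from group means also keep differences between early and late arrays. At 15 mg/kg the early array, replicate 2, was the highest in Cyp2a3 (9.77), Cyp2c7 (8.22) and Cyp1a2 (14.08). The part of array order in such correlations was not tested. Over all groups the same 5 genes still gave 0.946 to 0.976 without the 3 arrays. For Cyp2a1 they were Stbd1, a glycogen-binding protein (0.911), Cyb5a, cytochrome b5 (0.909), Abcc3 (0.908), Cyp2c7 and Ephx1 (both 0.885), and 0.847 to 0.880 without the 3 arrays. For Cyp2a2 they were Mydgf (0.826), Rnf7 (0.793), Ipo7 (0.774), Pfdn1 (0.770) and Ostc (0.758), none of which passed at 50 mg/kg (differences of 0.04 to 0.15). Without the 3 arrays they gave 0.724 to 0.792.

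Cyp2a3 and Cyp2a1 correlated at 0.901 over the 19 arrays and at 0.782 as deviations from group means. The deviations correlated at 0.649 without 0.1 mg/kg replicate 1 and at 0.523 without the 3 arrays in doubt, and the levels at 0.900 and 0.861. With Cyp2a2 both correlations were lower, 0.285 for Cyp2a3 and 0.339 for Cyp2a1 (0.111 and 0.163 without the 3 arrays). Cyp2c7 gave 4.47 to 5.03 in vehicle, 6.22 to 8.22 at 15 mg/kg and 6.97 to 8.94 at 50 mg/kg, so its groups separated as those of Cyp2a3 did. On 0.1 mg/kg replicate 1 Cyp2c7 gave 7.06, within the ranges of both 15 and 50 mg/kg. On that array Cyp2a3 stood at 9.01, within the range of 15 mg/kg (8.15 to 9.77) and below that of 50 mg/kg (9.20 to 10.71).

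**Figure D4:**
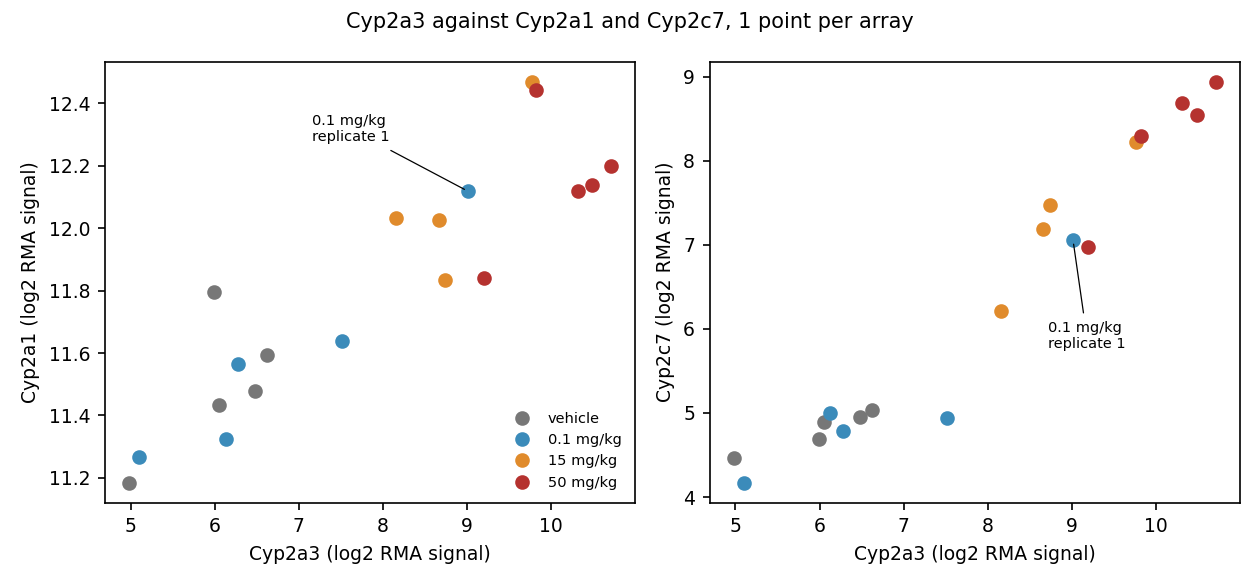
log2 RMA signal of Cyp2a1 (left) and Cyp2c7 (right) against that of Cyp2a3, 1 point per array, coloured by dose of DE-71. The array labelled 0.1 mg/kg replicate 1 stands at 9.01 in Cyp2a3 among the arrays of the higher doses, and the other vehicle and 0.1 mg/kg arrays lie at 7.51 or below.

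Other lists give the setting in which the family moved, each read beside the 2.23% of all genes that passed at 50 mg/kg (1.79% higher, 0.443% lower) and the median difference of 0.02 over all probe sets. The lists were chosen with earlier results of these data known, so their counts are no independent evidence of direction. Of 20 measured CAR and PXR targets 15 rose at 50 mg/kg (median log2 difference 1.21), among them Cyp3a23-3a1, a drug-metabolising P450, by 1.78-fold (SE 0.102 on the log2 scale, limma's adjusted p = 0.00123), Cyp2c7 by 11.2-fold and the carboxylesterase Ces2c by 3.37-fold. Of 8 AhR targets 5 rose (median 1.86), including Cyp1a1 by 91.3-fold, Cyp1a2 by 53.8-fold and the quinone reductase Nqo1 by 7.19-fold. Of 19 NRF2 targets 9 rose (median 0.49), including Nqo1 again, the export pump Abcc2 by 2.34-fold and malic enzyme Me1 by 2.33-fold. In the comparison of 15 mg/kg 0 members of these lists passed by limma's adjusted p, and 14, 4 and 7 had an unadjusted p under 0.05 (9.92% of all genes). With a block for early and late arrays the members that rose at 50 mg/kg were 8, 3 and 5, and without the 3 arrays in doubt 16, 5 and 9.

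Of 19 measured factors known to act on Cyp2a genes, 1 rose at 50 mg/kg (median -0.00). It was Nfe2l2, which encodes NRF2, at 10.47 ± 0.0979 (SD, n = 5) in vehicle and 11.34 ± 0.172 (n = 5) at 50 mg/kg, 1.84-fold (limma's adjusted p = 0.00817). Ahr itself went from 5.96 to 7.11 and did not pass (limma's adjusted p = 0.126). CAR (Nr1i3) differed by -0.18, PXR (Nr1i2) by 0.24 and the hepatocyte factor Hnf4a by 0.00, and their adjusted p-values by limma were 0.671, 0.512 and 0.997. The NFI genes Nfia, Nfib, Nfic and Nfix differed by -0.45, -0.17, -0.04 and -0.71, and none passed.

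Of 22 other measured Cyp2 genes 4 rose at 50 mg/kg and 0 fell (median 0.16). These were Cyp2c7 (log2 difference 3.48), Cyp2c6v1 (2.29), Cyp2c11 (1.36) and Cyp2d4 (0.39), so that Cyp2a3 had a larger log2 difference than each of them. That order was not tested. Cyp2c11 is known as a male-specific P450 of adult liver, as Cyp2a2, which did not pass, is male-predominant. A shift toward the pattern of either sex was not tested. Of 22 measured genes with sex-differentiated expression in adult liver 3 rose and 1 fell (median 0.12). Besides Cyp2c7, the named members were Akr1c14, a hydroxysteroid dehydrogenase, by 1.81-fold, and the prolactin receptor Prlr, which fell by 1.20 on the log2 scale.

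Of 13 measured genes for electron and heme supply to P450 enzymes 4 rose (median -0.01). They included Alas1, the first enzyme of heme synthesis, by 2.85-fold, the oxidoreductase Por by 2.49-fold and the heme-binding Pgrmc1 by 1.36-fold. Cytochrome b5 (Cyb5a), whose pattern was close to that of Cyp2a1, rose by 1.33-fold (limma's adjusted p = 0.0412). With a block for early and late arrays 0 of the factors passed by limma's adjusted p, and 1 gene each rose in the Cyp2, the sex-differentiated and the electron and heme lists. Without the 3 arrays in doubt these counts were 2, 4, 3 and 4.

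**Figure D5:**
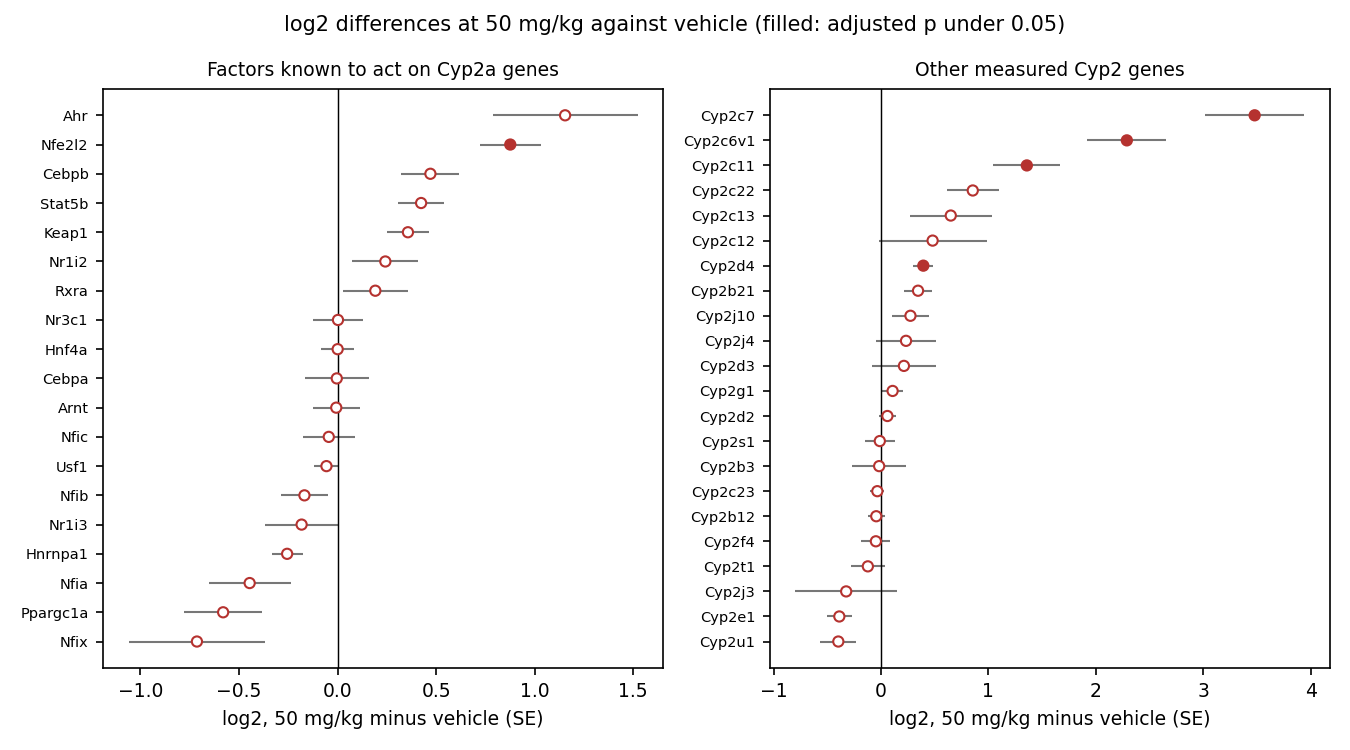
log2 differences between 50 mg/kg and vehicle, with limma's SE, for 19 factors known to act on Cyp2a genes (left) and 22 other measured Cyp2 genes (right); filled points passed an adjusted p of 0.05. Nfe2l2 at 0.88 is the filled factor, and Cyp2c7, Cyp2c6v1, Cyp2c11 and Cyp2d4 are the filled Cyp2 genes.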

How the data were processed

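The deposited values are log2 signals of 31099 probe sets on 19 arrays, made by RMA per the submitters' processing notes (version not given in the sources used here). This method, robust multi-array average, subtracts background, quantile-normalizes and summarises each probe set, and folds of very low or very high signals can read too small. The number of arrays limits the precision. Array medians lay between 6.06 and 6.16.

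57 control probe sets were left out. The platform annotation gave 20826 probe sets 1 symbol, 436 several and 9780 none, 20758 of the first matched RefSeq, and the probe set of highest mean stood for a gene. The submitters used R/maanova, per the series' design text; here 1 mean per group was fitted with limma 3.58.1 (R 4.3.3, 15 residual and 2.78 prior degrees of freedom), with Benjamini-Hochberg adjustment over 31042 probe sets. Comparisons with vehicle share its arrays. Single values and within-array differences had exact two-sided permutation tests over arrays, of which 0.00794 is the smallest possible p. The fit was tested on simulated data. Promoters come from RefSeq (GRCr8) and were aligned with Biopython 1.88.

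The members and lists were chosen with earlier results of these data known. Named were the members, the 5 genes most like each by Pearson correlation, called members of the factor and Cyp2 lists (up to 6), the 3 smallest p-values of other pathway lists, 10 neighbours on each side and Cyp1a1. Factors named besides Nfe2l2 were chosen after their values were seen. The alternatives tried were a median-level filter, trend and robust priors, compared groups alone, a replicate block, array number, early and late arrays (block and within), median centring, cyclic loess, exact tests and each array left out. The tests of unequal change were repeated only with cyclic loess, without the 3 arrays in doubt and with each array left out. Tissue scores, the 3 arrays in doubt left out (also with the block, and for correlations), the shared probe set, TATAAA and the NFI match with 1 mismatch were added after the data had been seen.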

Additional observations from a re-analysis of the deposited data

Results flagged for a closer look

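On the library labelled 0.1 mg/kg replicate 1, Cyp1a1 stood at 14.06 on the log2 scale, far from the other 4 arrays of its group. On the same array Cyp1a2 stood at 13.80, again far from the other 4. Cyp2c7 stood at 7.06 there, where the other 4 arrays lay at 4.17 to 5.00. These were 3 of 28 groups examined for an array apart from the others, and chance gives about 1 in 20. All 3 are of the same array, so they do not count as separate events beside that rate. No Cyp2a probe set had such an array in any group.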

How the results depend on the processing

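Cyp2a3 at 50 mg/kg passed in every alternative but 1, the late arrays alone (difference 3.29, limma's adjusted p = 0.399, with 1 array at 50 mg/kg). At 15 mg/kg Cyp2a3 also passed with the early and late block (2.73, 0.0414), without the 3 arrays in doubt (2.54, 0.0309), with both (2.54, 0.00292) and by the unadjusted exact permutation test (2.80, p = 0.00794). The same exact permutation test passed Cyp2a1 at 15 mg/kg (0.59, p = 0.0159) and Cyp2a3 between 50 and 15 mg/kg (1.28, p = 0.0317).

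The call of Cyp2a1 at 50 mg/kg was lost with array number as a covariate (0.56, limma's adjusted p = 0.139), the early and late block (0.42, 0.252), early arrays alone (0.75, 0.184), late arrays alone (0.34, 0.932), tissue scores (0.59, 0.114), the block without the 3 arrays in doubt (0.43, 0.173) and the shared probe set (0.61, 0.0794).

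Some differences that passed nowhere turned sign. Cyp2a1 between 50 and 15 mg/kg turned with array number (-0.058), the early and late block (-0.15), early arrays (-0.24), late arrays (-0.12) and the block without the 3 arrays in doubt (-0.083). Cyp2a1 at 0.1 mg/kg turned in late arrays (-0.053), without the 3 arrays in doubt (-0.066) and with the block as well (-0.0017). Cyp2a2 at 50 mg/kg turned with the block (-0.13), in early arrays (-0.67), with tissue scores (-0.10) and with the block without the 3 arrays in doubt (-0.11). In early arrays, which hold 1 array each of vehicle, 0.1 and 15 mg/kg and 4 of 50 mg/kg, Cyp2a2 also turned at 0.1 mg/kg (0.36) and between 50 and 15 mg/kg (-0.44). The difference of Cyp2a1 from Cyp2a3 at 15 mg/kg lost its call without the 3 arrays in doubt (-2.03, adjusted exact permutation p = 0.0857), where the unadjusted p of 0.0286 is the smallest that 4 against 4 arrays allow. The causes of the other changes were not tested.

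With each array left out in turn, Cyp2a3 at 50 mg/kg differed by 3.82 to 4.31 and passed in 19 of 19 fits. Cyp2a1 at 50 mg/kg differed by 0.57 to 0.73 (limma's adjusted p 0.0197 to 0.121) and passed in 6 of 19, without replicate 1 or 2 of 0.1 mg/kg, 2 or 4 of 15 mg/kg, 5 of 50 mg/kg or 4 of vehicle. Cyp2a3 at 15 mg/kg differed by 2.49 to 3.03 and passed in 1 of 19, without 0.1 mg/kg replicate 1. Between 50 and 15 mg/kg it differed by 1.05 to 1.59. Cyp2a1 ranged from -0.048 to 0.16 at 0.1 mg/kg and from -0.027 to 0.18 between 50 and 15 mg/kg. Cyp2a2 ranged from -0.40 to 0.28 at 0.1 mg/kg and from -0.75 to 0.28 at 15 mg/kg. Cyp2a1 against Cyp2a3 ranged from -2.42 to -2.03 at 15 mg/kg and passed in 11 of 19, being lost without any 1 of the 5 vehicle arrays or of replicates 2, 4 and 5 of 15 mg/kg. In each of these its exact permutation p was the smallest possible with fewer arrays (0.0286 for 4 against 4, 0.0179 for 3 against 5). Cyp2a2 against Cyp2a3 at 15 mg/kg ranged from -3.61 to -2.56 and passed in 1 of 19, without 15 mg/kg replicate 3. Cyp2a1 against Cyp2a2 ranged from -0.21 to 0.49 at 0.1 mg/kg and from -0.10 to 0.61 at 50 mg/kg.

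Replicate numbers showed no general pairing of the samples: 27 pairs of equal number had correlated deviations of -0.534 to 0.889 (median 0.036), 11 of them over 0.1. The 108 pairs of different number and group gave -0.577 to 0.658 (median 0.0016), 37 of them over 0.1. The value of 0.889 was that of vehicle replicate 2 and 0.1 mg/kg replicate 2, both in doubt. With the replicate block Cyp2a1 at 50 mg/kg did not pass (0.65, limma's adjusted p = 0.0695), 511 probe sets passed in place of 499, and no other call of a member changed. Averaging a gene's probe sets gave no other value, since each member has 1. The count of 499 became 171 with array number, 57 with the early and late block, 216 with that block without the 3 arrays in doubt, 267 with tissue scores, 11 and 2 within early and late arrays, and 178 to 704 with an array left out. Where 0 passed at 15 mg/kg, 2 to 14 did in 9 of the alternatives, and 0 to 11 with an array left out.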
